A study of Mus musculus with 24 samples.

Results

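In hematopoietic stem cells of young and old mice, 10 genes of early lymphoid development were followed. They were chosen by symbol as a list of genes that act in early steps towards lymphocytes. The receptor genes were *Flt3*, *Il7r*, *Il2rg* and *Notch1*. *Ikzf1*, *Tcf3*, *Ebf1* and *Satb1* were the transcription factor and chromatin genes, and *Rag1* and *Dntt* the antigen receptor recombination genes. Of the 10 genes, 9 had a row among the 18762 genes with normalized read counts, and *Il7r* is not analysed here. The minimum for the test across genes, 10 normalized read counts on average over the mice, was reached by 8 of them and by 12354 genes in all, and *Dntt* lay below it. This mean was taken over mice of both ages together.

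The cells were LSK-SLAM cells (lineage-negative, Sca-1+, c-Kit+, CD48-, CD150+), a bone marrow fraction enriched for hematopoietic stem cells (HSCs), from Wt C57BL/6 mice with no engineered allele or treatment named. Young mice (n = 5) were labelled 4 to 5 months old and old mice (n = 7) 20 to 22 months old. The study's text gives other ages for RNA-seq of these cells, so that the exact ages are in doubt, and those of the labels are used here. RNA of 15000 sorted cells per mouse was depleted of ribosomal RNA, 300 pg of it went into TotalScript libraries, and these were sequenced on an Illumina HiSeq, giving 24 labelled samples, 2 per mouse, and 1 column of values per mouse. Bulk RNA of a sorted fraction cannot tell apart fewer cells that express a gene from less RNA per cell. The labels call each mouse a replicate of its age and do not say whether mice were littermates or were sorted together.

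Each mouse name ends in the letter A (2 young and 4 old mice) or B (3 young and 3 old mice), whose meaning is not given in the sources used here. The letters stood apart in depth: reads recovered from the values ranged from 0.861 M to 3.11 M in letter A and from 3.23 M to 5.12 M in letter B, and 3 reads were worth between 0.583 and 3.69 normalized read counts in the different mice. By age the ranges were 2.05 M to 5.12 M in young and 0.861 M to 5.00 M in old mice. The main results for the members are therefore also given within letters or with the letter in the model. All 10 HSC marker genes listed for the sorted cells had a row, with a summed level between 1734 and 6127 normalized read counts per mouse. None was at 0 in every mouse, which also held for marker lists of other cell types and so does not single out HSCs. *Cd48*, whose protein the sort excluded, had a mean of 6.18.

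Lymphoid priming is the low-level transcription of lymphoid genes in cells that can still form other blood lineages. FLT3, a receptor tyrosine kinase, marks multipotent progenitors on the way from HSCs to lymphoid progenitors, and signals of FLT3 and of the IL-7 receptor, which contains the common gamma chain encoded by *Il2rg*, support these cells. Ikaros (*Ikzf1*) and E2A (*Tcf3*) act early in the programme, EBF1 commits cells to the B lineage and NOTCH1 to the T lineage, SATB1 organises chromatin in lymphoid cells, and RAG1 and terminal transferase (*Dntt*) cut and diversify antigen receptor genes.

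None of the 8 genes tested differed between old and young mice at an adjusted p under 0.05 (limma on log2(normalized read count + 1), Benjamini-Hochberg adjustment over all genes tested), where 13 genes or 0.105% of all genes tested did. Their adjusted p-values lay between 0.780 and 1.0, and edgeR and DESeq2 also called 0 of the 8. The gene with the largest difference was *Flt3*, whose mean in old mice was 0.57 times that of young mice, followed by *Il2rg*, whose mean was 1.51 times as high in old mice. An unadjusted limma p under 0.05 was reached by 1 of the 8, *Flt3*, beside 3.95% of all genes tested. On recovered reads, edgeR and DESeq2 gave unadjusted p-values under 0.05 for *Flt3* (0.0105 and 0.00405) and *Il2rg* (0.0286 and 0.0370). The limma share does not carry over to edgeR and DESeq2, which called 18 and 46 genes at an adjusted p under 0.05. Their own shares at an unadjusted p under 0.05 are not given here. The values of young and old mice overlapped for all 9 genes with a row, whereas they did not overlap for 0.461% of all genes tested. Of the 8, 4 had a lower and 4 a higher mean log2 value in old mice, with a median log2 fold change of -0.07 beside -0.02 over all genes tested (quartiles -0.20 and 0.20).

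**Figure D1:**
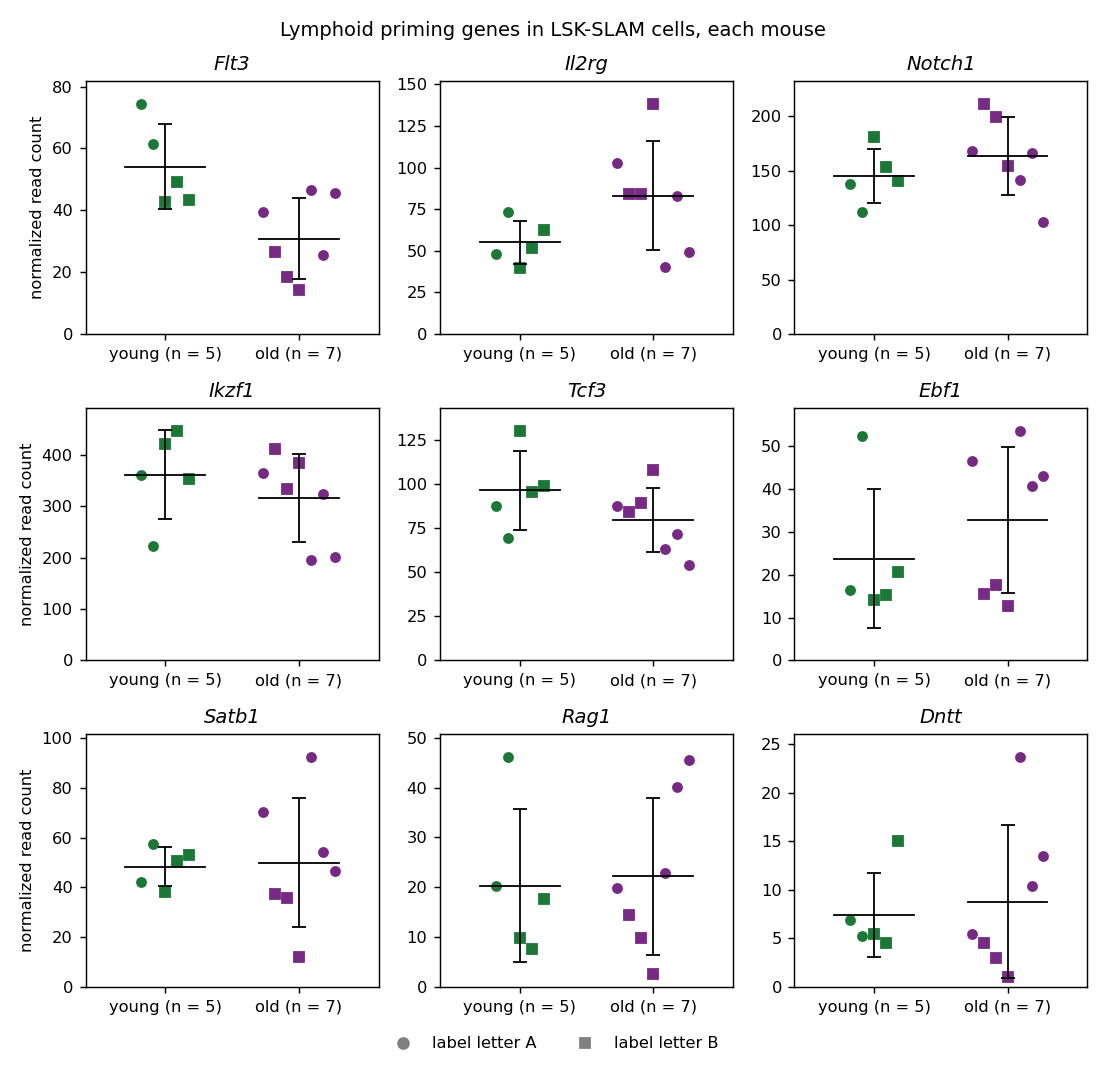
Normalized read counts of the 9 lymphoid priming genes with a row in LSK-SLAM cells of each mouse. Green points are young and purple points old mice, circles and squares are label letters A and B, and the black line and bars give the mean and SD. The 7 old mice lie between 14.2 and 46.6 for *Flt3* beside 42.6 to 74.3 in young mice, and for *Rag1* all squares lie below all circles.

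*Flt3* (ENSMUSG00000042817, GRCm38 chr5:147330741-147400489, minus strand, protein-coding) was at 74.3, 61.5, 42.6, 49.1 and 43.2 normalized read counts in young mice 1 to 5. In old mice it ranged from 14.2 to 46.6 with a median of 26.6. Every old mouse was below the young median of 49.1, and 5 of 7 were below all young mice, while old mice 5 and 7, at 46.6 and 45.5, were within the young range. The means were 54.1 ± 13.6 (SD, n = 5) and 30.8 ± 13.01 (SD, n = 7), and between 37 and 250 reads per mouse stood behind them. The log2 fold change was -0.87 (standard error 0.29, 95% interval -1.49 to -0.25, limma p = 0.00851, adjusted p = 0.780). In a two-sided exact permutation test of this gene alone over all 792 splits of the mice, p was 0.0177, unadjusted, the one p under 0.05 among 9 such tests.

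Within each letter *Flt3* was also lower in old mice. In letter A, young mice 1 and 2 had 74.3 and 61.5 and the 4 old mice 25.5 to 46.6 normalized read counts. In letter B, the 3 young mice had 42.6 to 49.1 and the 3 old mice 14.2 to 26.6. The ages did not overlap within either letter, and the overlap over all mice came from young mice of letter B and old mice of letter A. With so few mice per letter, ages can part without overlap by chance. The share of all genes tested that do so is not given here. The log2 fold change of *Flt3* was -0.81 in letter A alone (limma adjusted p = 1.0) and -1.19 in letter B alone (adjusted p = 0.0920). With the letter as a covariate it was -1.01 (standard error 0.23, 95% interval -1.49 to -0.53, a fold of 0.496), and the limma adjusted p was 0.0523. Exchanging mice only within letters gave a two-sided exact permutation p of 0.00333, the smallest that the 300 splits allow. An edgeR quasi-likelihood test on recovered reads with the letter as a covariate, a model chosen after the data were seen, gave a log2 fold change of -1.02 and an adjusted p of 0.0486, so that *Flt3* was called under this model, in which 43 genes or 0.348% were called. Without the letter, edgeR gave an adjusted p of 0.786 and DESeq2 of 0.305.

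CD34 is, like FLT3, a surface protein of progenitors close to HSCs. The LSK-SLAM sort named no gate on CD34, so that CD34+ cells could lie within the sorted fraction. The 4 genes with a row of a list for CD48+ or CD34+ progenitors summed to 130 to 257 normalized read counts in young mice (median 233) and to 95.5 to 168 in old mice (median 132), with none at 0 in every mouse. A two-sided exact permutation test of this sum over the ages gave p = 0.0101. The same test within letters gave p = 0.0267 (exact). Most of the sum was *Cd34*, with means of 182 in young and 84.6 in old mice, a limma log2 fold change of -1.04 (adjusted p = 0.0544) and, with the letter as a covariate, -0.99 (adjusted p = 0.00856). *Cd48* was lower (7.30 and 5.38) while *Cd52* (3.45 and 5.04) and *Cd33* (18.0 and 34.5, limma adjusted p = 1.0) were higher in mean in old mice, and without *Cd34* the list summed to means of 28.8 and 44.9 (two-sided exact permutation p = 0.576). The part of such progenitors in the *Flt3* difference was not tested.

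*Il2rg* (ENSMUSG00000031304, GRCm38 chrX:101264378-101268255, minus strand, protein-coding), the common gamma chain of the receptors for IL-2, IL-7 and IL-15, was at 47.9, 73.1, 39.6, 51.8 and 62.6 normalized read counts in young mice 1 to 5. In old mice it ranged from 40.3 to 138 with a median of 83.9. Of the old mice, 5 of 7 were above all young mice, and old mice 5 and 7, which had the fewest reads, were at 40.3 and 49.2. The mean was 55.0 ± 13.04 in the 5 young mice and 83.1 ± 32.7 in the 7 old mice (± SD), and the log2 fold change was 0.52 (standard error 0.27, 95% interval -0.05 to 1.08, limma adjusted p = 1.0). The two-sided exact permutation test over all mice gave p = 0.115, and within letters p = 0.11.

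The difference in *Il2rg* was larger among the deeper libraries. In letter B the 3 young mice had 39.6 to 62.6 and the 3 old mice 83.9 to 138 normalized read counts. They did not overlap, and the share of all genes tested without overlap in letter B is not given here. In letter A young mice had 47.9 and 73.1 and the 4 old mice 40.3 to 103, with overlap. The log2 fold change was 0.96 in letter B alone (limma adjusted p = 0.0432), where 1 of the 8 genes and 0.809% of all genes tested were called, and 0.12 in letter A alone (adjusted p = 1.0), where 0 of the 8 and 0.00809% were called. At an unadjusted limma p under 0.05, *Flt3* was the one gene of the 8 in letter A (p = 0.0424). In letter B these were *Il2rg* (limma p = 0.000328), *Flt3* (p = 0.00115) and *Satb1* (p = 0.0199). The shares of all genes at this threshold within letters are not given here. For *Il2rg* the difference between the letter-specific changes was 0.84 (limma p = 0.0849, adjusted p = 1.0) and was not called. Without old mice 5 and 7, a setting chosen after the data were seen, the log2 fold changes were 0.83 for *Il2rg* and -1.14 for *Flt3*, each with a limma adjusted p of 0.111.

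A protein-coding gene on the same strand, *Gm20489*, shares 728 exon bases, 30.5% of the exon length of *Il2rg*, and its own row held 0 to 0.789 normalized read counts. How shared reads were counted is not given in the sources used here, so that the level of *Il2rg* is uncertain by that overlap. IL2RG is abundant in natural killer (NK) cells. The 5 genes with a row of an NK cell list summed to 27.3 to 77.9 normalized read counts in young and 63.8 to 93.5 in old mice (two-sided exact permutation p = 0.0126), with *Klrb1c* at means of 13.9 and 43.4 (limma adjusted p = 0.0427) and *Ncr1*, a defining NK gene, at 7.01 and 5.79. *Nkg7* (20.7 and 12.01) and *Klrd1* (4.16 and 3.75) also had lower means in old mice and *Prf1* (9.02 and 11.1) a higher one. Without *Klrb1c* the sum had means of 40.9 in young and 32.6 in old mice (two-sided exact permutation p = 0.396), so that its increase came from this gene. Within letters, exact p was 0.0233 with *Klrb1c* and 0.19 without it. None of the 5 was at 0 in every mouse. Their part in the *Il2rg* difference was not tested.

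**Figure D2:**
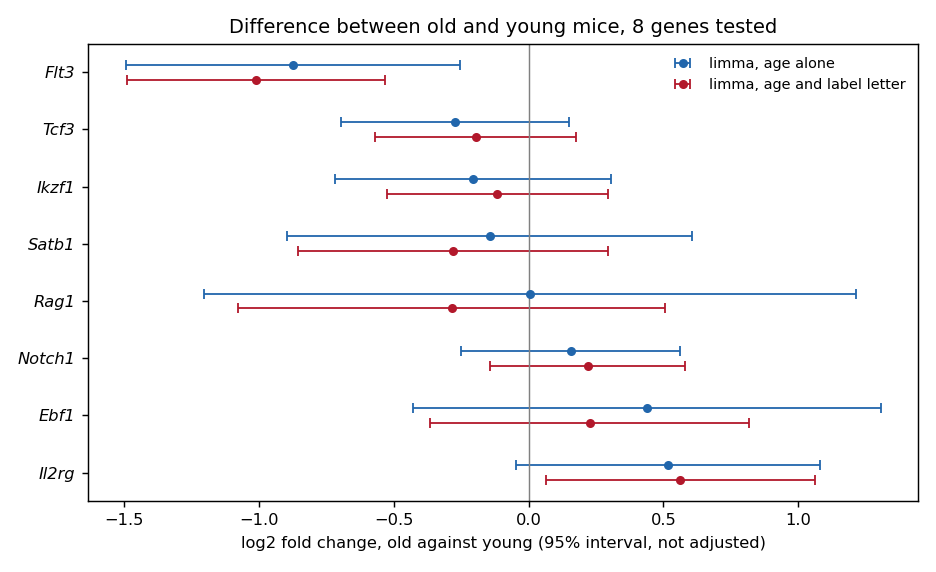
Log2 fold changes of old against young mice with unadjusted 95% intervals for the 8 genes tested, from limma with age alone (blue) and with age and label letter (red). The intervals of *Flt3* lie below 0 in both models, and that of *Il2rg* runs from -0.05 to 1.08 with age alone and from 0.06 to 1.06 with the letter.

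Promoter sequences are shown for the receptors with the largest differences between ages, *Flt3* and *Il2rg*, and for *Rag1*, the gene that differed most between the letters. Each is the 250 bases before a RefSeq transcript start (GRCm38.p6, minus strand, 5′ to 3′). Capitals mark the letters CAGCTG or CAGGTG, read on both strands (CACCTG on the other), which are forms of the E-box that E2A proteins bind.

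Flt3, chr5:147400490-147400739: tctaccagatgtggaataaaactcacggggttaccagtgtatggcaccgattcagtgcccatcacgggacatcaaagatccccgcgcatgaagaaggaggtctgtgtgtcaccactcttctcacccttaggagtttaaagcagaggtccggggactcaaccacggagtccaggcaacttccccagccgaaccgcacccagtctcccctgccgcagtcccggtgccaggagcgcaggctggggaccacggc

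Il2rg, chrX:101268256-101268505: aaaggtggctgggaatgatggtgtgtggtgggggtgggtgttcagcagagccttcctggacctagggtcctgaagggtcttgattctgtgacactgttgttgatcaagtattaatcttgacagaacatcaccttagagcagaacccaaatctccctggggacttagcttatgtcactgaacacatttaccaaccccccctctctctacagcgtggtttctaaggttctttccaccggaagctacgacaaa

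Rag1, chr2:101649533-101649782: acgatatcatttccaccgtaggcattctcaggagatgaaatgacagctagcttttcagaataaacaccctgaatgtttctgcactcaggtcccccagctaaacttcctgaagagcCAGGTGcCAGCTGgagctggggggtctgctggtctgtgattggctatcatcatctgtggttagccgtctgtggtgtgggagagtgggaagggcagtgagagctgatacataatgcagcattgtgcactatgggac

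RefSeq gave 15 promoters for the 9 genes with a row. The letters were found in 2 of the 15, that of *Rag1*, which holds both forms side by side, and 1 of several of *Satb1*, while 27.7% of 32851 mouse promoters of this length hold either form (13% CAGCTG and 17.2% CAGGTG). These letters are not in the *Flt3* and *Il2rg* windows.

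*Notch1* (ENSMUSG00000026923, GRCm38 chr2:26457903-26516663, minus strand, protein-coding), the receptor whose signal directs progenitors to the T lineage, was at 138, 112, 181, 153 and 140 normalized read counts in young mice 1 to 5. Old mice ranged from 103 to 211 with a median of 166, and 6 of 7 were above the young median while only 2 were above all young mice. Means were 145 ± 24.9 (SD, n = 5) and 163 ± 36.1 (SD, n = 7). The log2 fold change was 0.16 (95% interval -0.25 to 0.56, limma adjusted p = 1.0), so that the data leave room for a modest change in either direction. Of its exon length, 7.5% is shared with *0610009E02Rik* on the opposite strand, and whether the counting used strand is not given in the sources used here.

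Among the transcription factors, *Ikzf1* (ENSMUSG00000018654, GRCm38 chr11:11685003-11772926, plus strand, protein-coding), a zinc finger regulator of lymphoid genes, had the highest level. Young mice 1 to 5 were at 361, 224, 420, 448 and 353 normalized read counts, and old mice ranged from 195 to 411 with a median of 335. The lowest values were those of old mice 5 and 7 and young mouse 2, the mice with the fewest reads of their ages. Young mice averaged 361 ± 86.6 (SD, n = 5) and old mice 316 ± 86.0 (SD, n = 7), and the log2 fold change was -0.21 (95% interval -0.72 to 0.31, limma adjusted p = 1.0). The sign turned without old mice 5 and 7, where the log2 fold change was 0.04.

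*Tcf3* (ENSMUSG00000020167, GRCm38 chr10:80409514-80433647, minus strand, protein-coding), which encodes the E2A proteins, was at 87.7, 69.2, 130, 95.6 and 98.7 normalized read counts in young mice and at 54.1 to 108 in old mice (median 84.3). Of the old mice, 6 of 7 were below the young median, and 2 were below all young mice. Its log2 fold change was -0.27 (95% interval -0.70 to 0.15, limma adjusted p = 1.0).

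*Ebf1* (ENSMUSG00000057098, GRCm38 chr11:44617317-45008091, plus strand, protein-coding), the B lineage factor, split the mice by letter rather than by age. Young mice 1 to 5 had 16.5, 52.4, 14.1, 15.3 and 20.6 normalized read counts, and old mice 12.6 to 53.7 with a median of 40.6. In letter A, 5 of the 6 mice were between 40.6 and 53.7 with young mouse 1 at 16.5, and all 6 mice of letter B were between 12.6 and 20.6. Its log2 fold change between ages was 0.44 over all mice (95% interval -0.43 to 1.31, limma adjusted p = 1.0), 0.61 in letter A and -0.12 in letter B.

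*Satb1* (ENSMUSG00000023927, GRCm38 chr17:51736187-51833290, minus strand, protein-coding), the chromatin organiser, was at 42.0, 57.2, 38.3, 50.6 and 52.9 normalized read counts in young mice 1 to 5. Old mice spread from 12.1 to 92.3 with a median of 46.7, and their SD of 25.9 compared with 7.85 in young mice. Old mouse 4 was lowest and old mouse 5 highest. The log2 fold change was -0.14 over all mice (95% interval -0.89 to 0.61, limma adjusted p = 1.0) and 0.15 without old mouse 4. Within letters it had opposite signs, 0.37 in letter A and -0.86 in letter B. This difference of -1.23 was the largest among the 8 genes (limma p = 0.0264), but its adjusted p was 1.0, and of all genes tested 0.0162% had an age difference that differed between letters at an adjusted p under 0.05.

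*Rag1* (ENSMUSG00000061311, GRCm38 chr2:101638282-101649501, minus strand, protein-coding), a subunit of the recombinase, was at 20.2, 46.2, 9.81, 7.65 and 17.6 normalized read counts in young mice 1 to 5 and at 2.53 to 45.5 in old mice (median 19.9). The means of 20.3 ± 15.4 (SD, n = 5) and 22.2 ± 15.7 (SD, n = 7) were close beside their spread. Its log2 fold change of 0.01 had a 95% interval from -1.21 to 1.22 (limma adjusted p = 1.0), wide enough to hold a change of 1 log2 unit in either direction. Reads behind these values numbered 13 to 96 per mouse.

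*Dntt* (ENSMUSG00000025014, GRCm38 chr19:41029275-41059525, plus strand, protein-coding), which encodes terminal transferase, was at 6.84, 5.29, 5.49, 4.51 and 15 normalized read counts in young mice 1 to 5 and at 0.972 to 23.7 in old mice (median 5.42). Between 5 and 51 reads per mouse stood behind these values. The ages overlapped widely, and the difference of mean log2 values was -0.08 (two-sided exact permutation p = 0.893). Averaged within letters it was -0.19 (exact permutation within letters, p = 0.723). With the minimum mean lowered to 1, the limma 95% interval ran from -1.37 to 1.21 on the log2 scale, so that changes of 1 log2 unit in either direction lie within it.

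For several genes the label letter separated mice more than age did. With age in the model, 5 of the 8 genes differed between letter B and letter A at an adjusted p under 0.05 (limma), 4 of them lower in letter B, where 25.6% of all genes tested were lower, and 1 higher, where 10.5% were higher. For *Rag1* the log2 difference was -1.69 (adjusted p = 0.00207, standard error 0.38) and its letters did not overlap, with 19.9 to 46.2 normalized read counts in letter A and 2.53 to 17.6 in letter B. The share of all genes tested whose letters did not overlap is not given here. *Ebf1* followed with -1.24 (adjusted p = 0.00242), *Flt3* with -0.81 (adjusted p = 0.00926) and *Satb1* with -0.79 (adjusted p = 0.0285). *Ikzf1* was higher in letter B by 0.52 (adjusted p = 0.0414). *Tcf3* (0.45, adjusted p = 0.0504), *Notch1* (0.37, adjusted p = 0.0957) and *Il2rg* (0.27, adjusted p = 0.388) were not called by limma. *Dntt*, below the minimum mean, was at 5.29 to 23.7 normalized read counts in letter A and 0.972 to 15 in letter B (two-sided exact permutation p = 0.0887 over 924 splits). With edgeR in place of limma 4 of the 8 were called, *Rag1*, *Ebf1*, *Flt3* and *Satb1*, and *Ikzf1* was not (adjusted p = 0.0764). The share of all genes that edgeR called between letters is not given here.

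The direction followed the level of the gene, as it did over all genes. Genes with a mean of 20 to 50 normalized read counts had a median log2 difference between letters of -0.24, and *Rag1*, *Ebf1*, *Flt3* and *Satb1*, all in this band, had -1.69 to -0.79. In this band 28.8% of 4074 genes were called lower in letter B. For a mean of 50 to 100 the median was 0.17, beside 0.27 for *Il2rg* and 0.45 for *Tcf3*, and for 100 to 500 it was 0.42, beside 0.52 for *Ikzf1* and 0.37 for *Notch1*. Rescaling by median ratios moved the median of all genes from -0.09 to 0.21 and the calls from 1301 higher and 3161 lower to 3360 higher and 2536 lower. The number of the 8 genes called stayed at 5, but with 3 higher (*Ikzf1*, *Notch1*, *Tcf3*) and 2 lower (*Rag1*, *Ebf1*), while *Flt3* (-0.52, limma adjusted p = 0.0668) and *Satb1* (adjusted p = 0.114) were no longer called. Relative to the median of all genes, *Flt3* was at -0.72 under both scalings and *Rag1* at -1.60 and -1.62. Rescaling multiplies each library by a single factor, so that this match follows from the method and is no test of the letter difference.

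**Figure D3:**
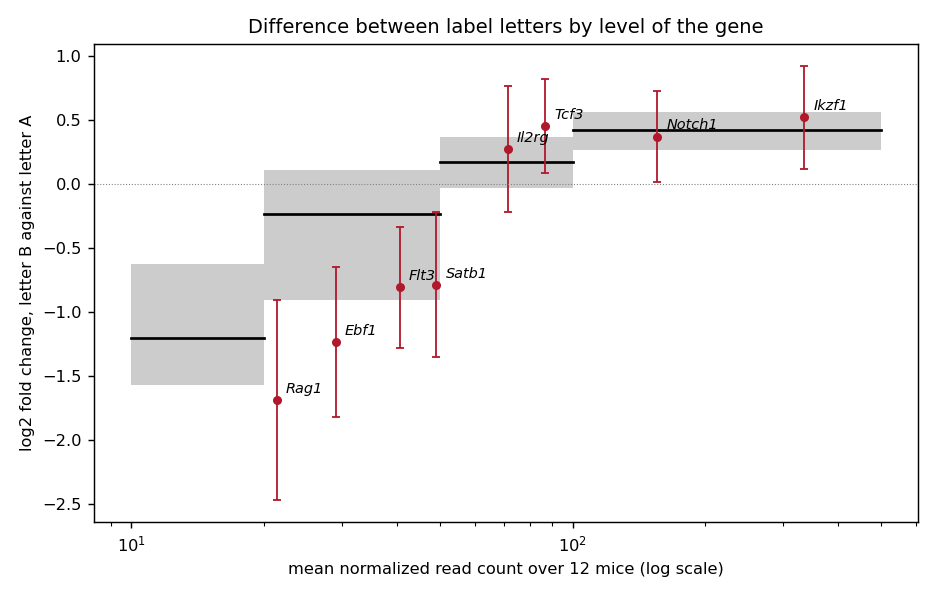
Log2 fold change of letter B against letter A, with age in the model, plotted against the mean level of each gene on a log scale. Black lines and grey bars give the median and quartiles of all genes tested in bands of level, and red points with unadjusted 95% intervals are the 8 lymphoid priming genes, from *Rag1* at -1.69 to *Ikzf1* at 0.52.

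Depth moved with these values. Over the 12 mice, log2 recovered reads had a Pearson correlation of 0.916 with log2 *Ikzf1*, 0.913 with *Tcf3*, -0.865 with *Ebf1* and -0.765 with *Rag1*, and after the means of each age and letter were taken off it was still 0.918 for *Ikzf1* and 0.808 for *Tcf3*. For *Flt3* it was -0.309 over all mice and -0.444 after these means were taken off, and for *Il2rg* 0.269 and 0.527. These are descriptions over mice that share a letter, a depth and a scaling. Sums of mature cell markers moved with the letter as well, as low genes did over the whole series. All 6 genes of a B cell list had a row and summed to 101 to 186 normalized read counts in letter A and 53.7 to 104 in letter B (two-sided exact permutation p = 0.00433). The 6 of 8 T cell genes with a row summed to 52.0 to 136 and 9.53 to 52.9 (p = 0.00649 by the same permutation test). No gene of either list was at 0 in every mouse, and neither sum differed between ages at p under 0.05 (p = 0.654 and 0.908 by exact permutation tests). Genes with a mean of 10 to 20 had a median log2 difference between letters of -1.21, and 53.7% of 3481 were called lower in letter B (limma). The B and T cell genes had means between 4.12 and 31.7. *Cd79b*, the highest B cell gene, had a higher mean in letter B (33.0) than in letter A (30.4), and the other B cell genes a lower one. The sort gates against cells with B220, CD4 or CD8a on their surface. The part of mature cells in the values of *Ebf1*, *Rag1*, *Dntt* and *Satb1* was not tested.

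Levels of different genes were compared per kb of exon, with the exons of all annotated transcripts of a gene merged. Exons that are not used in these cells lower such a level, so that the order depends on the annotation. *Ikzf1* was highest at 58.0 ± 14.8 normalized read counts per kb (SD, n = 12), above *Il2rg* at 29.9 ± 12.3 in 12 of 12 mice. *Tcf3* followed at 21.4 ± 5.13 per kb, and *Il2rg* was above it in 9 of 12 mice, an order that did not hold beyond the spread. *Notch1* at 10.9 ± 2.25 per kb was below *Tcf3* in 12 of 12 mice and above *Flt3*, at 6.57 ± 2.82, in 9 of 12. *Dntt* at 3.59 ± 2.79, *Rag1* at 3.236 ± 2.25, *Ebf1* at 2.98 ± 1.70 and *Satb1* at 2.58 ± 1.04 per kb did not differ in order beyond their spread, with *Rag1* above *Ebf1* in 7 and *Ebf1* above *Satb1* in 6 of 12 mice. Per kb, *Ikzf1* was above 98.0% and *Flt3* above 61.3% of genes, and *Satb1* above 19.4%. The merged exons of *Satb1* held 19027 bases and those of *Flt3* 6176. Before division by length *Satb1* had the higher mean, 49.1 beside 40.6 normalized read counts for *Flt3*.

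**Figure D4:**
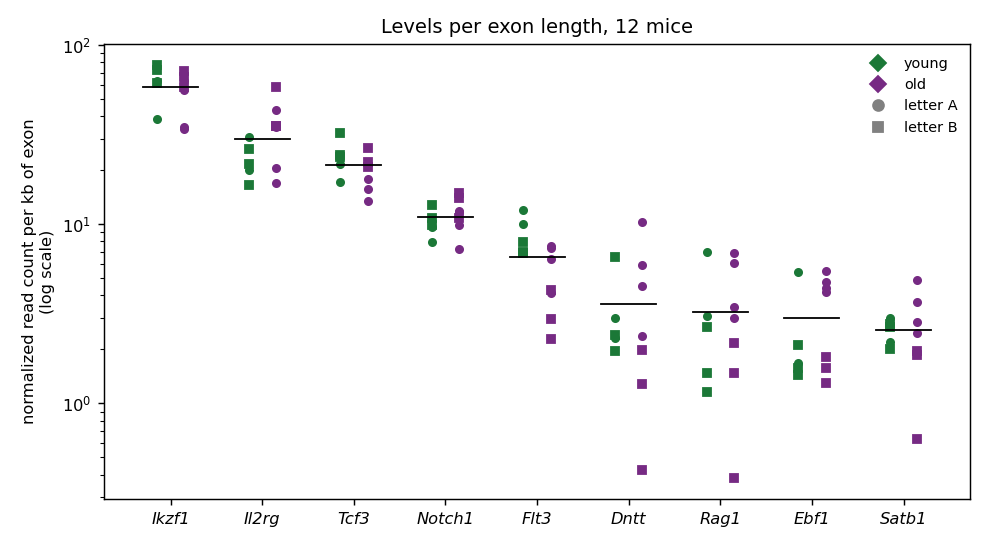
Normalized read counts per kb of exon (log scale) of the 9 genes in each of 12 mice, ordered by their mean (black line). Green is young and purple old, circles are letter A and squares letter B. *Ikzf1*, at a mean of 58.0, lies above *Il2rg* in every mouse, and the last 4 genes overlap.

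Some members varied together among mice, and the pairs named here were picked for that. Pearson correlations of log2 values after removal of age and letter means, given over 12 mice as a description, were 0.705 between *Ikzf1* and *Tcf3*, 0.677 between *Ikzf1* and *Notch1* and 0.569 between *Notch1* and *Tcf3*. They were 0.578 between *Dntt* and *Rag1*, 0.537 between *Dntt* and *Satb1* and 0.520 between *Satb1* and *Ebf1*. *Rag1* and *Tcf3* had -0.630, and *Flt3* and *Il2rg* -0.622. With the same means taken off, log2 recovered reads had correlations of 0.918 with *Ikzf1*, 0.808 with *Tcf3* and 0.666 with *Notch1*. For *Dntt* it was -0.632, for *Rag1* -0.515, for *Ebf1* -0.493, for *Satb1* -0.28, for *Flt3* -0.444 and for *Il2rg* 0.527. The part of depth in these pairs was not tested. The tested genes whose pattern over 12 mice was most like that of *Flt3*, after letter means were taken off, were *Hjurp* (r = 0.929), *Islr* (0.910), *Mdga1* (0.899), *Flcn* (0.884) and *Pcyt1b* (0.877). Age means were not taken off, so that a lower mean in old mice, as all 5 had, follows from their choice.

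The wider programme was read from 6 lists of genes around these members, 136 genes in all, of which 115 had a row and 102 were tested. At an adjusted p under 0.05, 0 of 102 were higher and 0 lower in old mice (limma), also with the letter as a covariate, where 0.299% of all genes tested and 0 of the 8 members were called. edgeR also called 0 of the 102. At an unadjusted p under 0.05 there were 5 of 102 beside the 3.95% of all genes. Of the 102, 47 had a higher and 55 a lower mean in old mice, with a median log2 fold change of -0.03.

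Of 24 cytokine signalling genes, 8 were higher and 16 lower in mean, 2 with an unadjusted p under 0.05. *Il15*, a cytokine that signals through the common gamma chain, was at 36.7 ± 5.81 normalized read counts in young (SD, n = 5) and 21.4 ± 6.80 in old mice (SD, n = 7), a difference of -0.79 on the log2 scale (limma adjusted p = 0.743), or -0.85 with the letter as a covariate (adjusted p = 0.292). *Socs3*, an inhibitor of JAK-STAT signals, had 0.70 (adjusted p = 1.0), and *Cish*, another such inhibitor, had -0.39. None of 29 Notch pathway genes had an unadjusted p under 0.05, the smallest being those of the receptor *Notch4* (0.74), the gamma-secretase gene *Psen2* (0.35) and the ligand *Jag1* (0.42).

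All 5 tested genes of the E protein list had a lower mean in old mice, between -0.45 for *Ldb1* and -0.11 on the log2 scale, with *Tal1* at -0.29 and *Lyl1* at -0.22, and none had an unadjusted p under 0.05, while 52.3% of all genes tested had a lower mean. With the letter as a covariate *Ldb1* was at -0.32, *Tal1* at -0.15 and *Lyl1* at -0.12, and within letter B alone all 3 were within 0.01 of 0. *Tcf12* and *Lmo2* were at 0.0007 and 0.0046 with the letter, and at 0.16 and 0.24 within letter B alone. The shared direction over all mice thus did not hold within letter B. Of these 5, 4 were called higher in letter B, beside 10.5% of all genes tested and 36.85% of genes with a mean of 100 to 500, the band of these 4 genes. Under median ratio scaling all 5 were called higher, beside 27.2% of all genes. Among 24 other lymphoid transcription factors 1 had an unadjusted p under 0.05, *Ets1* (0.44, limma adjusted p = 1.0), next to *Foxo1* (0.37) and *Sox4* (-0.48).

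Of 11 recombination and end joining genes, 1 had an unadjusted p under 0.05. This was *Xrcc5*, which encodes the KU80 subunit of the end joining machinery, at 79.2 ± 12.7 normalized read counts in young (SD, n = 5) and 51.1 ± 11.5 in old mice (SD, n = 7) (log2 fold change -0.64, limma adjusted p = 0.709, and -0.64 with the letter, adjusted p = 0.413), next to the polymerase gene *Polm* (0.63) and *Paxx* (-0.46). Of 9 surface genes, *Lax1*, an adaptor of lymphocyte signalling, was named for the smallest unadjusted limma p. It was at 33.2 to 44.7 in young and 16.6 to 31.2 in old mice. Its ages did not overlap, as was so for 0.461% of all genes tested. Its log2 fold change was -0.66 with and without the letter as a covariate (limma adjusted p = 0.566 and 0.780). *Cd93* had a log2 fold change of -0.29 (adjusted p = 1.0).

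**Figure D5:**
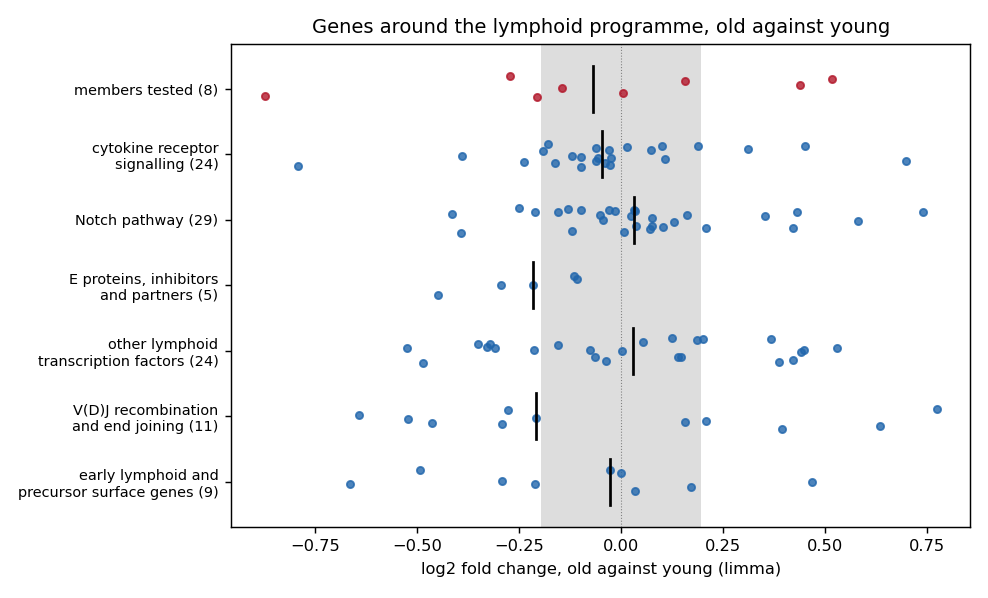
Log2 fold changes of old against young mice (limma) for the 8 members tested (red) and for 102 genes of 6 lists around them (blue), each point a gene and each black bar the median of its row. The grey band spans the quartiles of all genes tested, -0.20 to 0.20, and none of the points passed an adjusted p under 0.05.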

How the data were processed

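LSK-SLAM RNA-seq data of 5 young and 7 old mice were taken from a deposited table with 1 column per mouse, while the labels list 2 samples per mouse. The authors deposited normalized read counts, a signal in which the reads of each gene were scaled by library size and a factor per library. The labels name FastQC 0.11.8, STAR 2.5.4b, edgeR 3.24.3 and the mm10 build in the submitters' processing notes, and the counting tool and annotation are not given in the sources used here. A second deposited table held the authors' own comparison (fold changes, log2 CPM, p-values) and was not used. In each mouse 100% of the values came out as whole reads, within 0.01 reads, once divided by the step that corresponds to 1 read, and these recovered reads served for count tests. Reads carry no molecular identifiers, so that read numbers bear on counting error only.

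Ages were compared with limma 3.58.1 in R 4.3.3 (lmFit, eBayes with trend) on log2(value + 1) over genes with a mean of at least 10, with Benjamini-Hochberg adjustment and calls at an adjusted p under 0.05. This scale understates changes of low genes. Members were read from this fit across all genes. Letter and interaction terms used the same model. edgeR 4.0.16 quasi-likelihood tests and DESeq2 1.42.0 were run on recovered reads as alternatives. Single values were compared by two-sided exact permutation tests over mice, with no adjustment. P-values measure the spread between mice only as far as these are independent. Permutation tests and summaries were run in Python 3.11.15 (scipy 1.17.1, numpy 2.4.6, pandas 2.3.3), and scripts were tested on simulated data.

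The members and the lists were chosen with earlier results of these data known. Named genes were the members, the tested genes of each list with the smallest unadjusted limma p (up to 3), the 5 genes most like *Flt3*, and marker lists by their sums (HSC, CD48+ or CD34+ progenitor, B cell, T cell, NK cell, myeloid, erythroid and megakaryocyte). *Cd48*, *Cd34*, *Klrb1c*, *Ncr1*, *Gm20489*, *Tcf12* and *Lmo2* were singled out, and list sums without *Cd34* or *Klrb1c* were added, after their values were seen. Of the genes that the rule named, 1 surface gene is not reported here. Exon lengths and positions came from GENCODE vM21 (GRCm38), in which 18745 of 18762 gene identifiers were found, and promoters from RefSeq.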

Additional observations from a re-analysis of the deposited data

Results flagged for a closer look

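Among 54 groups of mice of 1 age examined for the members and the genes named from the lists, 4 held a mouse far from the others by Dixon's test, where chance gives about 1 in 20, or 2.7. *Dntt* was at 15 normalized read counts in young mouse 5 beside 4.51 to 6.84 in the other young mice. *Ebf1* was at 52.4 in young mouse 2 beside 14.1 to 20.6. In the same mouse *Lyl1* was at 112 beside 199 to 223, and *Foxo1* at 72.6 beside 93.4 to 100 in the other young mice. Young mouse 2 carried letter A and had the fewest reads of the young mice. The groups examined mixed the letters. For *Ebf1* the 4 old mice of letter A were at 40.6 to 53.7, a range that holds young mouse 2. Young mouse 1, the other young mouse of letter A, was at 16.5.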

How the results depend on the processing

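Over 29 settings, log2 fold changes between ages ran from -1.19 to -0.71 for *Flt3*, 0.12 to 0.96 for *Il2rg*, 0.07 to 0.32 for *Notch1* and -0.38 to -0.11 for *Tcf3*, without a change of sign. None of the 8 genes was called except *Il2rg* in letter B alone (1 called) and *Flt3* in edgeR with the letter as a covariate (1 called), with lowest adjusted p-values of 0.0432 and 0.0486. *Rag1* (0.01) turned negative with a pseudocount of 0.5 (-0.0085), the letter covariate (-0.29), letter A (-0.017), letter B (-0.52), replicates 1 to 5 with or without the block (-0.52 each), median ratio scaling (-0.041), the 10 deepest mice (-0.36) and edgeR with the letter (-0.23), and leaving out 1 mouse gave -0.25 to 0.39, negative without young mice 3 or 4 or old mice 1, 5, 6 or 7. *Satb1* (-0.14) was positive in letter A (0.37), edgeR (0.030) and DESeq2 (0.0051), and leaving out 1 mouse gave -0.33 to 0.15. *Ebf1* was at -0.12 in letter B, and *Ikzf1* at 0.04 in the 10 deepest mice. The cause was not tested.

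The 13 genes called over all genes became 2 without a trend, 37 with the letter covariate, 1 in letter A, 100 in letter B, 8 in replicates 1 to 5, 5 with median ratios, 46 with DESeq2, 49 in the 10 deepest mice, 43 with edgeR and the letter, and 3 to 32 when 1 mouse was left out. It was 3 without young mouse 3 or 4 or old mouse 1, 2 or 3, 4 without young mouse 5, 6 without young mouse 1, 7 without old mouse 6 and 32 without old mouse 5. A replicate block, for replicates 1 to 5 only, gave 19 genes and 0 of the 8. Same numbers belong to different animals, and their deviations correlated with a mean of 0.136 (-0.559 to 0.615 over 5 pairs), so that the numbers were not read as a pairing. Replicates 1 to 5 without the block, the 10 deepest mice, edgeR with the letter and permutation within letters were chosen after the data were seen. Of the genes studied, *Dntt* and *Rag1* rest on the fewest reads.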

Other observations

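Of the other marker lists, the 8 myeloid genes with a row summed to 238 to 2227 normalized read counts in letter A and 180 to 571 in letter B, and the 7 erythroid genes to 124 to 741 and 76.9 to 238. The 4 megakaryocyte genes with a row summed to 94.7 to 201 in letter A and 142 to 243 in letter B. None of these genes was called between ages (limma, Benjamini-Hochberg adjustment), and the sums did not differ between ages at p under 0.05 (two-sided exact permutation p = 0.506, 0.443 and 0.506). The HSC list summed to 3223 to 5534 in young and 1734 to 6127 in old mice (exact permutation p = 0.650), and to 1734 to 4505 in letter A and 4305 to 6127 in letter B (exact permutation p = 0.00866).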
